A study of Mus musculus with 10 samples.

Results

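The 10 genes described here encode glutathione transferases in leukemia stem cells of mice with MLL-AF9 acute myeloid leukemia, a leukemia driven by a fusion oncogene that acts in myeloid progenitors. They were taken by symbol from the deposited gene table and are 10 of its 52171 genes. They comprise the mu-class genes Gstm1, Gstm2, Gstm4, Gstm5, Gstm6 and Gstm7, the alpha-class gene Gsta4, the pi-class gene Gstp1, and the microsomal genes Mgst1 and Mgst2. The family was chosen by class and with the levels of these same libraries in view, since Gstm7 had already been seen to be higher in the heterozygous cells. The rule thus used the contrast between genotypes, and the fold changes and calls of its members below are a description of these libraries, not a test.

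Glutathione transferases join the tripeptide glutathione to reactive, electron-poor compounds such as drugs, carcinogens and the aldehydes released by lipid peroxidation. The cytosolic classes work as dimers in solution, whereas the microsomal enzymes sit in membranes, where some also reduce lipid hydroperoxides or make leukotrienes. Conjugates leave the cell through ABC transporters and are trimmed by peptidases, and many of these genes answer to the transcription factor NRF2. In blood cells the family is known for drug inactivation and for leukotriene synthesis in myeloid cells.

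RNA-seq had been run on bone marrow cells sorted for c-Kit, CD34 and CD16/32 and against lineage markers and Sca-1. The Nup214 heterozygous group held 5 libraries from Nup214fl/+,Tie2-Cre mice. In these mice 1 allele of Nup214, which encodes a nuclear pore protein, is floxed and meets a Cre recombinase driven by Tie2, which is active in endothelial and blood-forming cells. The floxed control group held 5 libraries from Nup214fl/+ mice, which carry the same floxed allele without Cre. Both groups carried MLL-AF9. Neither the age of the mice nor whether each library came from its own mouse is given in the sources used here, so the statistics measure the spread between libraries, which may be technical. Cre was present in the heterozygous group only, so its effect and that of Nup214 loss cannot be told apart.

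Values are normalized reads, that is, read counts divided by 1 factor per library, and fold changes are heterozygous over control on the log2(value + 1) scale with standard errors. Nup214 itself averaged 484 ± 83.1 normalized reads in heterozygous and 906 ± 69.8 in control libraries (SD, n = 5 each), and the log2 fold change was -0.92 (SE 0.13, limma adjusted p = 0.00144). Depth was 24.6 to 39.1 M reads in heterozygous and 20.8 to 30.1 M in control libraries. The heterozygous libraries were not alike. Summed levels of 12 neutrophil markers were 0.0405 and 0.0948 M normalized reads in heterozygous libraries 1 and 2, and 2.20, 1.73 and 4.07 M in heterozygous libraries 3, 4 and 5, against 1.11 to 1.63 M in the controls. Of the marker genes, Ly6g, a lineage antigen of mature neutrophils, had 4.77, 11.4, 1294, 544 and 3679 in heterozygous libraries 1 to 5, against 45.3 to 77.4 in controls. Not all 12 followed the sum. Csf3r had 3992 and 4761 in heterozygous libraries 1 and 2, against 3002 to 3836 in controls. Camp had 114066, 69229 and 205850 in heterozygous libraries 3, 4 and 5, against 172477 to 344937 in controls. Retnlg and Mmp8, also among the 12, had at most 18.3 and 17.0 in controls. Summed levels of 10 erythroid markers were 9.54 and 122 in heterozygous libraries 1 and 2 and 2253 to 2754 in heterozygous libraries 3, 4 and 5, against 14.8 to 76.4 in controls. Kit, a marker of the sort gate, was present in every library, at 673 to 1676 in heterozygous and 1822 to 2820 in control libraries. Member values are therefore also given without heterozygous libraries 1 and 2, or without 3, 4 and 5, where this changes the direction or the call.

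Of the 10 members, 2 (Gstm7 and Gstp1) were called higher in heterozygous cells and 0 lower at a Benjamini-Hochberg adjusted p under 0.05 in limma. Over all 22458 genes tested, 5% were called higher and 8.01% lower. At an unadjusted p under 0.05, 4 members were higher and 1, Mgst1, was lower, a threshold at which all genes were not counted. edgeR called 1 of 8 members tested higher, where it called 1010 of 13242 genes higher and 808 lower. DESeq2 called 4 of 10 higher, where it called 1617 of 39862 genes higher and 1873 lower. Neither called any member lower. The median log2 fold change was 0.30 over the members and -0.19 over all genes tested. On the same 22458 genes the all-gene median was -0.02 after quantile normalization and -0.13 after TMM scaling. It also depended on which genes were tested, at -0.02 over the 15486 genes of a stricter filter and -0.24 over 39862 genes without one. With edgeR, on 13242 genes, it was 0.00, and with DESeq2, on 39862 genes, it was -0.59. Of all calls, 38.4% were higher in heterozygous cells, against 60.1% after quantile normalization and 55.6% with edgeR. Because the contrast chose the family, nothing is read from the members' counts against these shares.

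**Figure D1:**
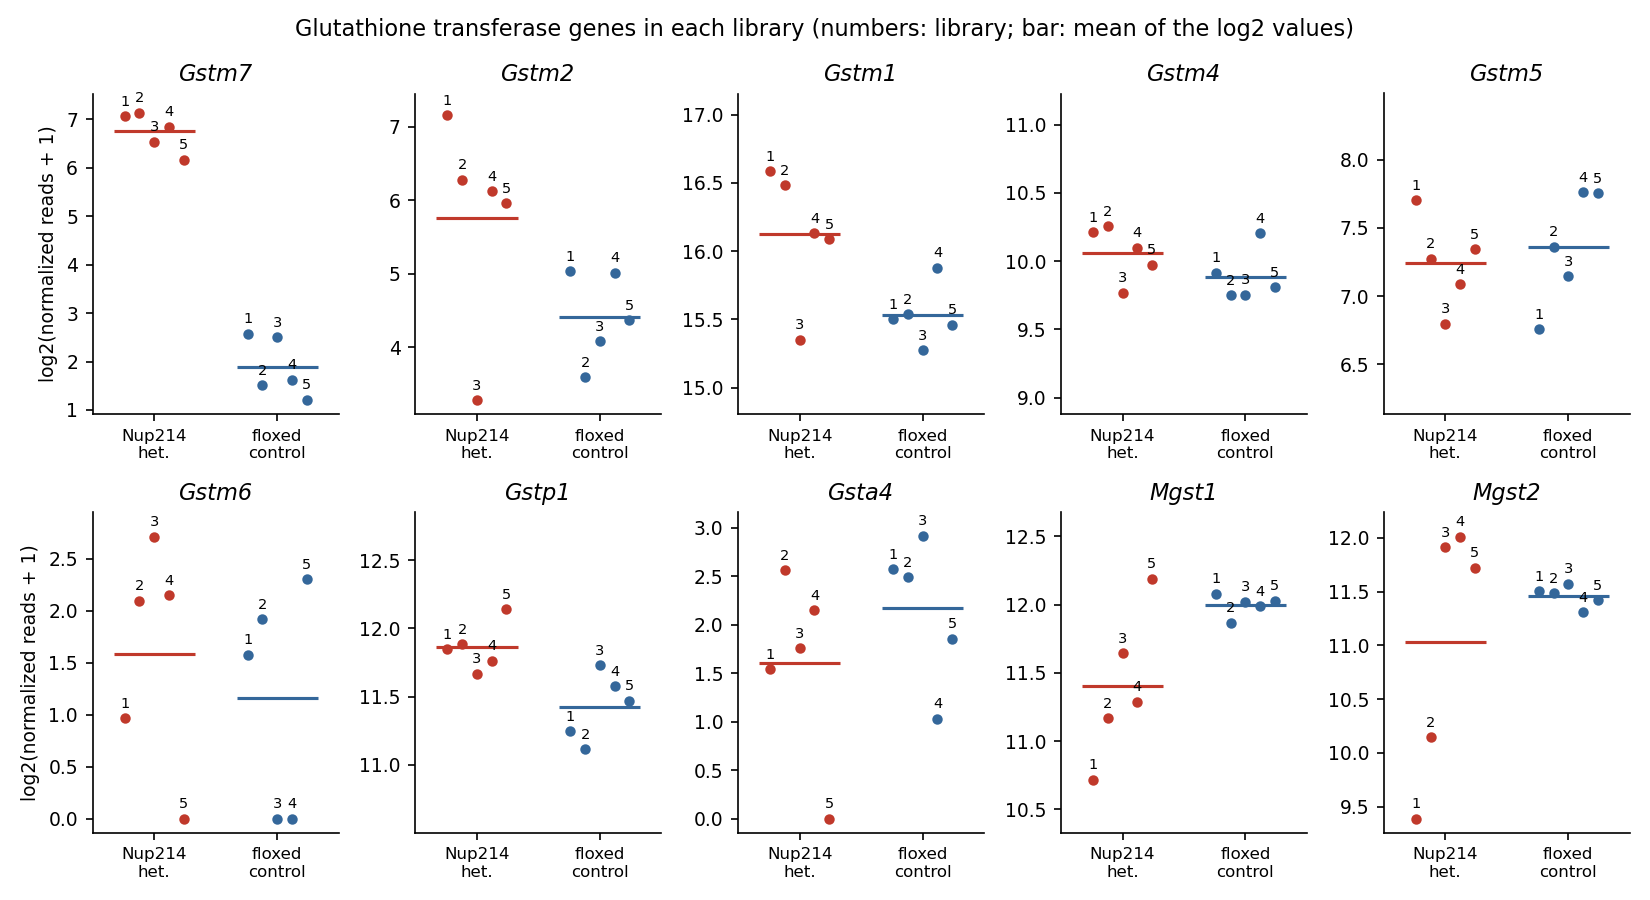
Each panel plots 1 member, with log2(normalized reads + 1) on the vertical axis, on a scale that differs between panels and does not start at 0. Points are single libraries numbered 1 to 5, Nup214 heterozygous in red on the left and floxed control in blue on the right, and bars are means of the log2 values. Only for Gstm7 do all 5 heterozygous libraries lie above all 5 controls.

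Gstm7, a mu-class transferase that is part of the mu gene cluster on chromosome 3, had 133, 140, 92.1, 114 and 70.7 normalized reads in heterozygous libraries 1 to 5, against 4.96, 1.85, 4.69, 2.09 and 1.31 in control libraries 1 to 5. Every heterozygous library lay above every control, which held for 1 of the 10 members and for 4.64% of all genes tested, while 0 members and 6.67% of all genes lay below the controls throughout. Group means were 110 ± 28.6 in heterozygous and 2.98 ± 1.71 in control libraries (SD, n = 5 each), a ratio of 36.9. The log2 fold change was 4.87 (SE 0.35), which ranked 10 among 22458 genes. The control level rested on 15 reads in all 5 libraries together (95% Poisson interval 8.40 to 24.7), whereas the heterozygous level rested on 605 (558 to 655). Both intervals cover counting error only, since reads of amplified copies of 1 molecule cannot be told apart. In bulk RNA, more cells that express the gene and more RNA per cell cannot be told apart either.

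Gstm7 was called higher under all 20 alternative settings, with log2 fold changes of 4.63 to 5.30. It was 4.63 without heterozygous libraries 1 and 2, and 5.21 without heterozygous libraries 3, 4 and 5. Its heterozygous values varied 1.98-fold between the highest and lowest library. It was called in either set of libraries, with a low or with a high neutrophil marker sum. None of the 50-base stretches of its transcript occurs in the transcript of another gene.

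The gene lies at chr3:107926334-107931817 on the minus strand of mm10 (ENSMUSG00000004035.12, GENCODE M21), with 8 exon blocks. The 250 bases before its start (RefSeq, GRCm38.p6, chr3:107931818-107932067, minus strand) are shown since it is the member with the largest difference, beside those of Gstm1 (chr3:108017974-108018223, minus strand), the member with the highest level. A script searched both strands of the 250 bases for 3 motifs. These were the antioxidant response element core TGACNNNGC, which NRF2 with small MAF proteins binds, the xenobiotic response element core GCGTG, which the aryl hydrocarbon receptor binds, and TGANTCA, the AP-1 site. In Gstm7 no match was found, and in Gstm1 the capitals mark the 1 match to GCGTG, which starts 76 bases before the start.
Gstm7: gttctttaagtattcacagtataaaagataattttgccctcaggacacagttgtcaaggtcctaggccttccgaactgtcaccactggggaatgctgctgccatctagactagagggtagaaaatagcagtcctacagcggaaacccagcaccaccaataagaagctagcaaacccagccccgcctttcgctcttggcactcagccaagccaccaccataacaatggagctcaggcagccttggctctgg
Gstm1: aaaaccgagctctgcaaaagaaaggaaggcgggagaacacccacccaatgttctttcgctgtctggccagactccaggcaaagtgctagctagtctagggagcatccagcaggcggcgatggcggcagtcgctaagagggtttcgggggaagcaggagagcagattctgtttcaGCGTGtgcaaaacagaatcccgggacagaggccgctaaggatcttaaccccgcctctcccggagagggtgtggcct

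RefSeq promoters were found for 9 of the 10 members, Gsta4 being the other. TGACNNNGC was found in 2 of the 9, Gstm5 and Mgst1, against 10.1% of 27025 mouse promoters of the same length. GCGTG was found in 3 (Gstm1, Gstm5 and Gstp1), against 28.3%, and TGANTCA in 3 (Gstm5, Gstp1 and Mgst2), against 6.83%. In Gstm5 one GCGTG match overlaps the TGACNNNGC match on the other strand. Both TGACNNNGC matches are shown on the plus strand with 10 bases on either side, the match in capitals, for Gstm5 at chr3:107895802-107895830 and for Mgst1, where it reads on the other strand, at chr6:138140461-138140489. The cores start 42 and 56 bases before the RefSeq starts. By GENCODE the Gstm5 core lies directly before the gene and the Mgst1 core inside its annotated span. A match is a description of letters only. Neither gene was called in the limma fit of all 10 libraries at the deposited scaling. Mgst1 was called lower after quantile normalization (-0.80).
Gstm5: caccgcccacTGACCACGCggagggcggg
Mgst1: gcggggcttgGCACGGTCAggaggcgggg

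The mu-class genes lie together over 149 kb of chromosome 3, in the order Gstm5, Gstm7, Gstm6, Gstm3, Gstm2, Gstm1 and Gstm4. The start of Gstm6 is 11.9 kb from that of Gstm7, and that of Gstm5 36.0 kb on the other side. Gstm6 had 0.954, 3.27, 5.55, 3.44 and 0 normalized reads in heterozygous libraries 1 to 5, against 1.98, 2.77, 0, 0 and 3.93 in controls. The groups overlapped, and all its values rest on 16 reads in heterozygous and 8 in control libraries. A count of 0 allows up to 4.61 normalized reads in heterozygous library 5, and up to 2.81 and 3.13 in control libraries 3 and 4, so a difference of the size seen (log2 fold change 0.43, SE 0.63) was not detectable at this depth.

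**Figure D2:**
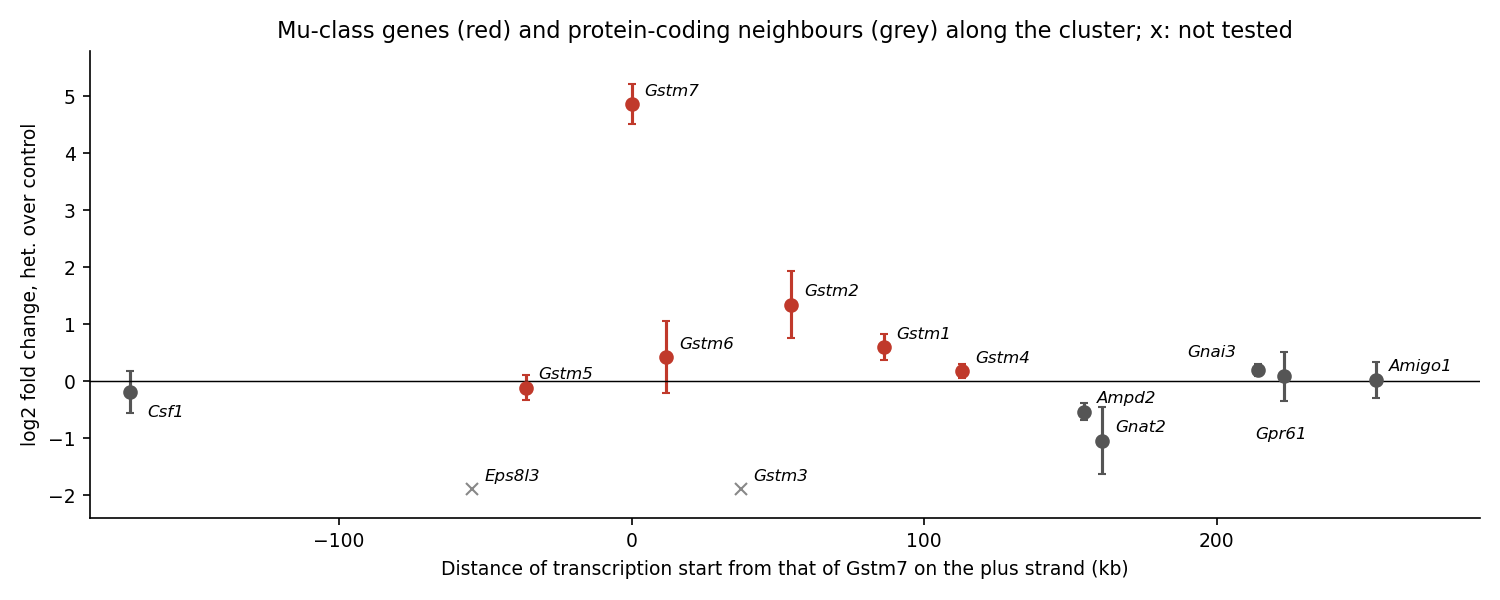
The log2 fold change (heterozygous over control, points, with standard errors) is plotted against the distance in kb of each gene's start from that of Gstm7. Red points are mu-class members, grey points other protein-coding genes nearby, and crosses genes not tested, drawn at an arbitrary height. Gstm7 at 4.87 stands between Gstm5 at -0.12 and Gstm6 at 0.43.

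Gstm2, whose human counterpart conjugates quinones formed from catecholamines, lies 54.6 kb from Gstm7. It had 142, 76.8, 8.73, 68.8 and 61.5 normalized reads in heterozygous libraries 1 to 5, against 31.7, 11.1, 15.9, 31.3 and 19.6 in controls. Heterozygous libraries 1, 2, 4 and 5 lay above all controls, and heterozygous library 3 lay below all of them. Its log2 fold change was 1.34 (SE 0.58) and was not called. Without heterozygous library 3 it was 1.97 and called. It was also called by DESeq2 (1.71) and without heterozygous libraries 3, 4 and 5 (2.30), and it was 0.71 and not called without heterozygous libraries 1 and 2.

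Gstm1, the main mu-class enzyme of many mouse tissues, had 98302, 91576, 41734, 71725 and 69649 normalized reads in heterozygous libraries 1 to 5, against 46290, 47474, 39590, 60268 and 45089 in controls. Here too, heterozygous libraries 1, 2, 4 and 5 lay above all controls, while library 3 lay within the control range. Means were 74597 ± 22152 in heterozygous and 47742 ± 7625 in control libraries (SD, n = 5 each). That difference, 0.60 on the log2 scale (SE 0.22), was not called. It was called without heterozygous library 3 (0.79), by DESeq2 (0.64) and without heterozygous libraries 3, 4 and 5 (1.005). After quantile normalization it was 0.36, and without heterozygous libraries 1 and 2 it was 0.33. Of the 50-base stretches of the Gstm1 transcript, 23.1% also occur in other transcripts, mostly the pseudogene Gstm2-ps1, which itself averaged 62.9 ± 21.4 normalized reads in heterozygous and 45.2 ± 9.46 in control libraries.

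Heterozygous library 3 had the lowest value of its group for Gstm1, Gstm2, Gstm4 and Gstm5. Heterozygous libraries 1 and 2 had the highest values of Gstm1, Gstm2, Gstm4 and Gstm7, and they also had the lowest neutrophil and erythroid marker sums of that group. The part of other cell types in this order was not tested.

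Gstm4, a cytosolic mu-class enzyme encoded at the far end of the cluster, had 1184, 1223, 871, 1096 and 1006 normalized reads in heterozygous libraries 1 to 5, against 965, 859, 863, 1179 and 897 in controls. The groups overlapped, with a log2 fold change of 0.17 (SE 0.13). Gstm5, best known from brain and testis, had 207, 154, 110, 135 and 161 in heterozygous and 107, 164, 141, 216 and 215 in control libraries, and the groups overlapped as well. Its log2 fold change was -0.12 (SE 0.22), and 0.13 without heterozygous libraries 3, 4 and 5. Its exons share 178 bases with the antisense gene 4933431E20Rik, and without strand information their reads cannot be told apart.

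Gstm3, a mu-class gene in the cluster that is not among the 10 members, was too low to be tested, with 0.172 ± 0.385 normalized reads in heterozygous and 2.51 ± 1.66 in control libraries (SD, n = 5 each). Of the other protein-coding genes within 150 kb of the cluster, Csf1, Gnat2, Gnai3, Gpr61 and Amigo1 were tested and not called. Ampd2, an AMP deaminase picked out after its values were seen, fell in heterozygous cells, log2 fold change -0.54 (SE 0.15, limma adjusted p = 0.0350), and that call ended under 9 of 20 alternative settings, among them without heterozygous library 4 or 5 and without control library 1, 2, 3 or 4.

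The 5 genes whose pattern over the 10 libraries was nearest to that of Gstm7 were the class I MHC genes H2-Q6 and H2-Q7, the growth factor gene Clec11a, the extracellular matrix gene Ecm1 and Nxpe5. Their mean absolute log2 difference from Gstm7, each gene centred on its own mean, was 0.925, 0.971, 0.996, 1.02 and 1.04. The search covered 9460 genes with a mean of at least 50 normalized reads. Predicted or unnamed genes and the members were left out of it, so a gene of these kinds may be nearer. H2-Q6 and H2-Q7 are near-identical copies that may share reads. Within the heterozygous group the order could differ from that of Gstm7, as for Nxpe5, with 169 and 177 normalized reads in libraries 1 and 2, and 974, 911 and 769 in libraries 3, 4 and 5.

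Gstp1, the pi-class enzyme, which inactivates alkylating drugs and binds the stress kinase JNK, had 3679, 3781, 3254, 3471 and 4508 normalized reads in heterozygous libraries 1 to 5, against 2427, 2218, 3391, 3052 and 2837 in controls. Heterozygous libraries 1, 2, 4 and 5 lay above all controls, while library 3 lay below control library 3. Means were 3739 ± 475 in heterozygous and 2785 ± 472 in control libraries (SD, n = 5 each). Gstp1 rose, with a log2 fold change of 0.43 (SE 0.13), close to the threshold. It was called in 5 of 20 alternative settings, and leaving out heterozygous library 1, 2, 4 or 5 or control library 1, 2, 4 or 5 ended the call, with values of 0.35 to 0.47. After quantile normalization the value was 0.22. The call also ended without heterozygous libraries 1 and 2 (0.43) and without heterozygous libraries 3, 4 and 5 (0.44). Of the 50-base stretches of its transcript, 62.3% also occur in that of its neighbour Gstp2, so its reads could be split with this paralog. Gstp2 had 4.67 ± 5.23 normalized reads in heterozygous and 3.66 ± 1.90 in control libraries (SD, n = 5 each).

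Gsta4, the alpha-class enzyme that conjugates 4-hydroxynonenal, an aldehyde product of lipid peroxidation, was at the edge of detection. It had 1.91, 4.90, 2.38, 3.44 and 0 normalized reads in heterozygous libraries 1 to 5, against 4.96, 4.62, 6.56, 1.04 and 2.62 in controls, from 15 and 20 reads in all. The groups overlapped. Its log2 fold change was -0.57 (SE 0.54), and 0.31 after quantile normalization, and a count of 0 in heterozygous library 5 allows up to 4.61 normalized reads.

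The microsomal genes varied more between the heterozygous libraries than between the controls. Mgst1 encodes a membrane enzyme with transferase and peroxidase activity, reported in human cancer cells to limit lipid peroxidation. It had 1681, 2298, 3202, 2501 and 4670 normalized reads in heterozygous libraries 1 to 5, against 4328, 3736, 4151, 4061 and 4172 in controls. Heterozygous libraries 1 to 4 lay below all controls, and heterozygous library 5 lay above all of them. Mgst1 was not called (log2 fold change -0.60, SE 0.21). It was called lower after quantile normalization (-0.80), without heterozygous library 5 (-0.79) and without heterozygous libraries 3, 4 and 5 (-1.05).

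Mgst2, a membrane enzyme that can reduce lipid hydroperoxides and make leukotriene C4, had 669, 1131, 3854, 4120 and 3372 normalized reads in heterozygous libraries 1 to 5, against 2900, 2860, 3049, 2536 and 2743 in controls. Heterozygous libraries 1 and 2 lay below all controls, and libraries 3, 4 and 5 lay above all of them. The log2 fold change over all libraries was -0.42 (SE 0.42) and was not called. Without heterozygous libraries 3, 4 and 5 it was -1.69 and called lower, and without heterozygous libraries 1 and 2 it was 0.42 and called higher. The libraries with low Mgst2 were those with 0.0405 and 0.0948 M normalized reads of neutrophil markers, and the libraries with high Mgst2 were those with 1.73 to 4.07 M. The part of these cells in the result was not tested.

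**Figure D3:**
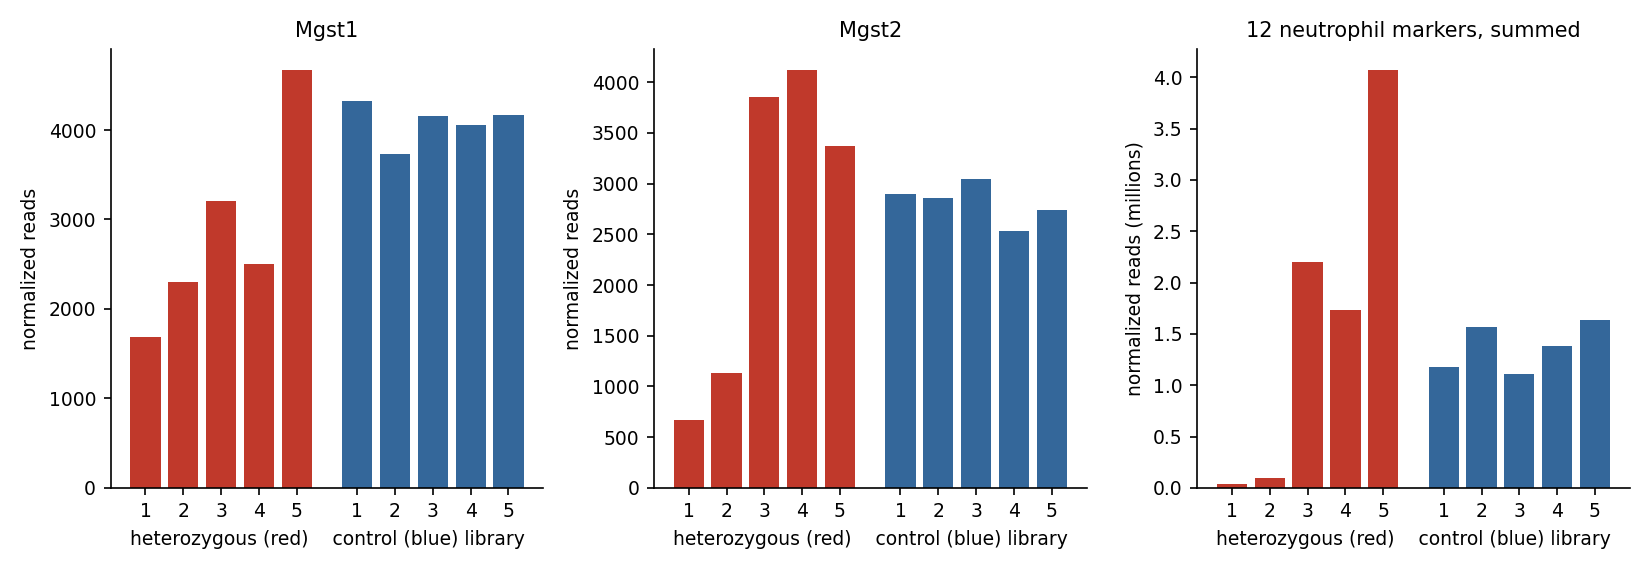
Bars show normalized reads of Mgst1, of Mgst2 and of the sum of 12 neutrophil markers (in M) in heterozygous libraries 1 to 5 (red) and control libraries 1 to 5 (blue). Mgst2 and the marker sum are low in heterozygous libraries 1 and 2, while the control bars are of similar height throughout.

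The coefficient of variation between libraries was 39.8% in heterozygous and 5.38% in control libraries for Mgst1, and 61.2% in heterozygous and 6.80% in control libraries for Mgst2. Among the cytosolic genes with high levels, Gstm1 varied by 29.7% in heterozygous and 16.0% in control libraries. Gstp1 varied by 12.7% in heterozygous and 17.0% in control libraries, and Gstm4 by 13.2% in heterozygous and 14.0% in control libraries. Per kilobase of exon, the ratio of Mgst1 to Mgst2 was 4.62 and 3.74 in heterozygous libraries 1 and 2 and 1.12 to 2.55 in heterozygous libraries 3, 4 and 5, against 2.40 to 2.95 in controls. The size of this ratio depends on the lengths used, but its order between libraries does not. Per kilobase of the longest protein-coding transcript, Mgst1 averaged 2460 and Mgst2 4360 in heterozygous libraries. In controls these were 3504 and 4673, so on that length the mean of Mgst2 was the higher in both groups. Their ranges overlapped in heterozygous libraries and stood apart in controls.

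Called members differed with the heterozygous libraries kept. Without heterozygous libraries 1 and 2, Gstm7 and Mgst2 were called higher and 0 of 10 members lower, where 9.91% of all genes tested were called higher and 12.5% lower. Without heterozygous libraries 3, 4 and 5, Gstm1, Gstm2 and Gstm7 were called higher and Mgst1 and Mgst2 lower, among 9 members tested, where 8.39% of all genes were called higher and 9.31% lower. Gstm7 was the member called in both.

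**Figure D4:**
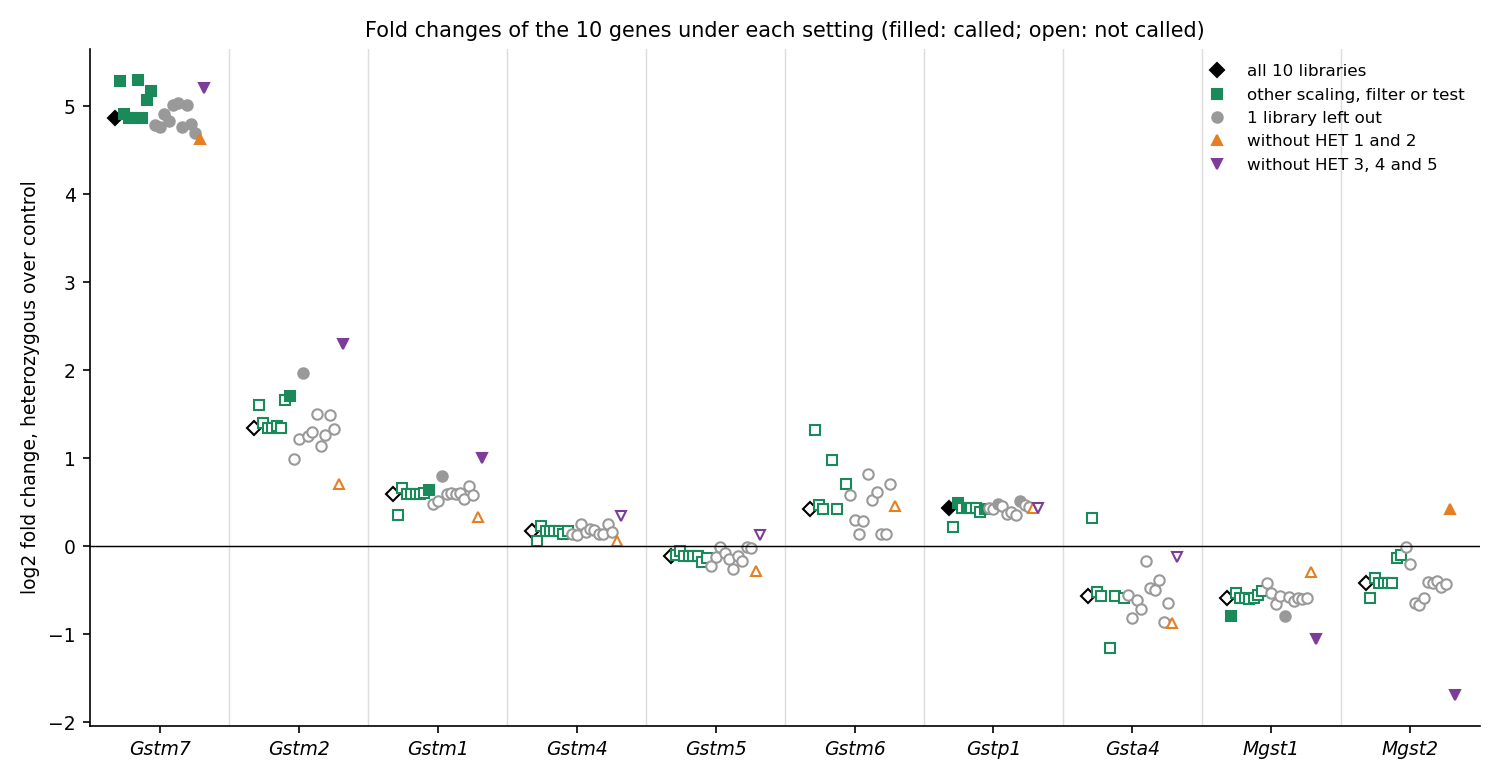
The log2 fold change (heterozygous over control) of each member is plotted for all 10 libraries (diamond), other scalings, filters or tests (squares), each library left out (circles), and without heterozygous libraries 1 and 2 (up triangle) or 3, 4 and 5 (down triangle). Filled symbols were called at an adjusted p under 0.05. All Gstm7 symbols are filled, between 4.63 and 5.30, while Mgst2 runs from -1.69 to 0.42.

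Levels of different members were compared as normalized reads per kilobase of the union of exons. Gstm1 stood first, at 50643 ± 15039 in heterozygous and 32412 ± 5177 in control libraries (SD, n = 5 each), and its range did not overlap that of the next gene in either group. Gstm1 made up 89.5% ± 4.02 of the summed level of the 10 members in heterozygous and 85.8% ± 2.16 in control libraries. This share was taken on exon unions only and depends on the lengths used. In heterozygous libraries Gstp1 followed at 2415, then Mgst1 at 1426, Mgst2 at 710 and Gstm4 at 630, each overlapping its neighbour in range. In control libraries the order was Mgst1 at 2032, Gstp1 at 1799, Mgst2 at 761 and Gstm4 at 558, where only the range of Gstp1 and that of Mgst2 stood apart. Gstm5 followed at 120 in heterozygous and 132 in control libraries, below the range of Gstm4 in both.

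Gstm7 took different places in the groups. It stood at 68.7 ± 17.9 per kilobase in heterozygous libraries, in 7th place and overlapping Gstm5 above and Gstm2 below in range. In control libraries it stood at 1.86 ± 1.07, in 9th place and overlapping Gsta4 (3.13) and Gstm6 (0.873). The place of Mgst2 depends on the length used. Its exon union is 3.70 kb. On its longest protein-coding transcript of 0.603 kb it averaged 4360 in heterozygous and 4673 in control libraries. This placed it just below Gstp1 in heterozygous and just below Gstm1 in control libraries.

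Other genes of glutathione chemistry were taken from 5 lists, and 77 of the 92 listed were tested. Of these, 13 rose and 4 fell in heterozygous cells, where 5% and 8.01% of all genes tested did so, and their median log2 fold change was 0.13. Without heterozygous libraries 1 and 2 the counts were 21 and 8, where 9.91% of all genes tested rose and 12.5% fell. Without heterozygous libraries 3, 4 and 5 they were 11 and 10, where 8.39% of all genes tested rose and 9.31% fell. From each list the called genes with the smallest p, up to 4, are named below, so they were picked by their values.

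Of 16 other glutathione transferases and relatives tested, 2 rose and 1 fell. Gstk1, the kappa-class transferase of mitochondria and peroxisomes, had 226 to 295 normalized reads in heterozygous and 118 to 163 in control libraries (log2 fold change 0.87, SE 0.14, limma adjusted p = 0.00302). Alox5ap, which presents arachidonate to 5-lipoxygenase, rose as well (log2 fold change 0.75, SE 0.17, adjusted p = 0.0173). That call was lost after quantile normalization (adjusted p = 0.0739) and without control library 1 (adjusted p = 0.0539). Ptges, the inducible prostaglandin E synthase, fell to 59.2 ± 15.9 normalized reads in heterozygous cells, against 185 ± 31.9 in controls (SD, n = 5 each). On the log2 scale this was -1.67 (SE 0.23, adjusted p = 0.00118). Alox5ap and Ptges are relatives of Mgst1 and Mgst2 in the family of membrane enzymes of eicosanoid and glutathione metabolism.

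**Figure D5:**
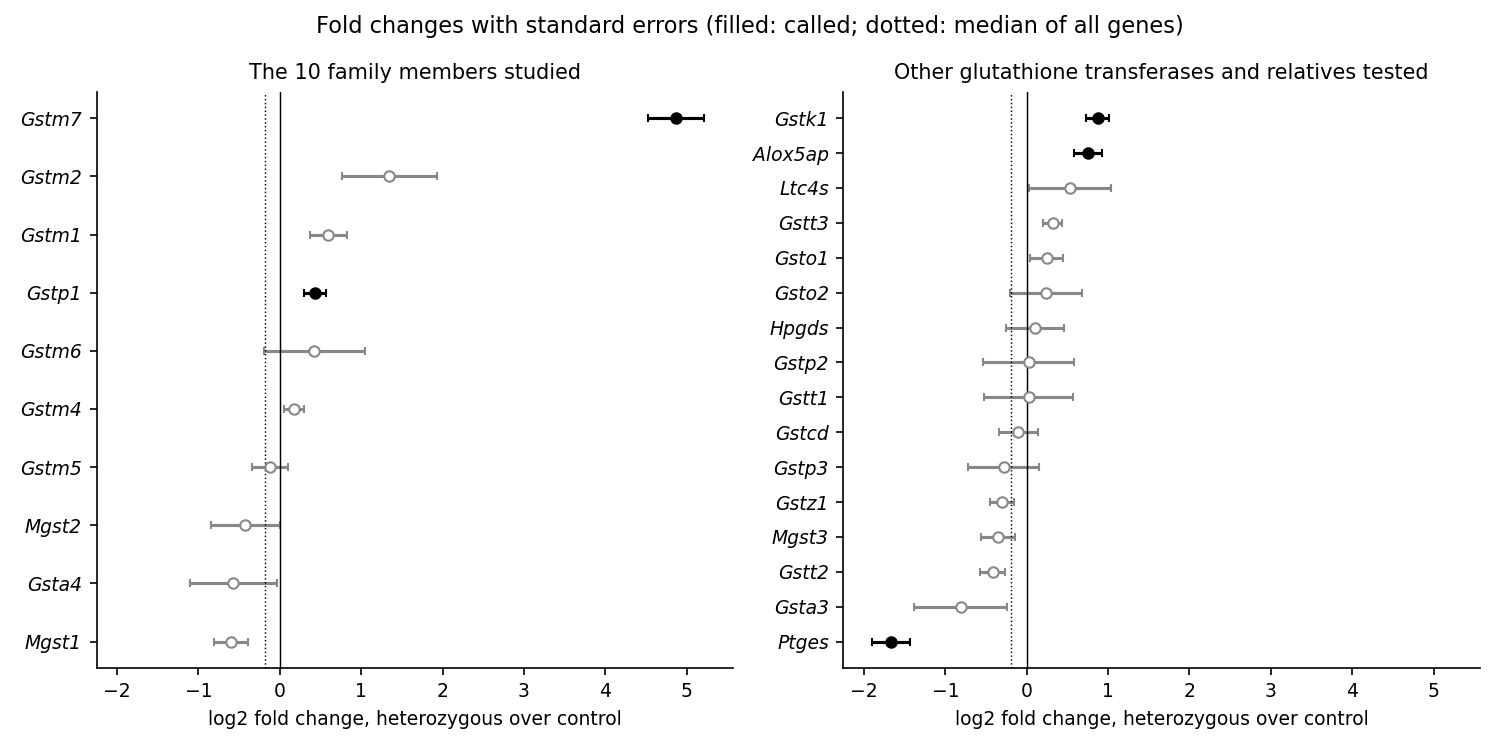
Log2 fold changes (heterozygous over control) with standard errors are shown for the 10 members on the left and the 16 other transferases and relatives tested on the right. Filled points were called, and the dotted line is the median of all genes at -0.19. Gstm7 at 4.87 lies beyond all others shown.

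Of 16 genes of glutathione synthesis and recycling, 2 rose and 1 fell. Gclm, the modifier subunit of the enzyme that makes gamma-glutamylcysteine, had 2823 to 5813 normalized reads in heterozygous and 1052 to 1869 in control libraries (log2 fold change 1.39, SE 0.22, adjusted p = 0.00285). Gsr, which reduces oxidized glutathione, rose (log2 fold change 0.57, SE 0.15, adjusted p = 0.0289), and this call ended under 7 of 20 alternative settings, among them without heterozygous library 4 and without control library 1, 2 or 5. Gls2, the liver-type glutaminase, fell (log2 fold change -2.53, SE 0.40, adjusted p = 0.00271), at low levels of 0.817 to 4.76 normalized reads in heterozygous and 11.9 to 26.2 in control libraries.

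Of 16 genes of conjugate breakdown and export tested, 2 rose and 1 fell. Cndp2, a cytosolic dipeptidase that cleaves cysteinylglycine, rose (log2 fold change 0.53, SE 0.12, adjusted p = 0.0166), a call that ended after quantile normalization (adjusted p = 0.0728). Ggt5, which trims glutathione conjugates such as leukotriene C4, did so too (log2 fold change 1.94, SE 0.51, adjusted p = 0.0271). It reached 197, 96.3 and 240 normalized reads in heterozygous libraries 3, 4 and 5 and 32.4 and 35.1 in heterozygous libraries 1 and 2, against 15.7 to 28.8 in controls, and the call was lost without heterozygous library 3, 4 or 5 or control library 1, 2, 4 or 5. Abcc1, which exports glutathione conjugates, fell (log2 fold change -0.52, SE 0.13, adjusted p = 0.0251), and was called in 17 of 20 alternative settings, but not without control library 1 (adjusted p = 0.0633) or 2 (adjusted p = 0.0597).

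Of 16 partners in electrophile and aldehyde clearance tested, 5 rose and 1 fell. Akr1b3, aldose reductase, rose (log2 fold change 0.84, SE 0.12, adjusted p = 0.00155), as did the quinone reductase Nqo1 (log2 fold change 2.20, SE 0.42, adjusted p = 0.00726). Aldh3a2, which oxidizes fatty aldehydes, was another (log2 fold change 0.63, SE 0.13, adjusted p = 0.0114). Ptgr1, which reduces the double bond of reactive alkenals, fell to 2468 ± 1160 normalized reads in heterozygous cells, against 8376 ± 2423 in controls (SD, n = 5 each). On the log2 scale this was -1.83 (SE 0.28, adjusted p = 0.00225). Akr1c13 and Esd, named after their values were seen, were the other genes that rose. Akr1c13 reached 2.50 on the log2 scale (SE 0.59, adjusted p = 0.0195) and Esd reached 0.42 (SE 0.13, adjusted p = 0.0461).

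Of 13 regulators of transferase transcription tested, 2 rose and 0 fell, also 0 at an unadjusted p under 0.05, and edgeR and DESeq2 called 0 lower as well. Without heterozygous libraries 3, 4 and 5, 0 were called higher and 1 lower, Sp1, which is named after its values were seen. Nfe2l2, which encodes NRF2, rose (log2 fold change 0.66, SE 0.14, adjusted p = 0.0130). Its small MAF partner Mafg also rose (log2 fold change 0.39, SE 0.12, adjusted p = 0.0415) but was called in only 6 of 20 alternative settings. Once heterozygous libraries 3, 4 and 5 had been left out, which leaves 2 heterozygous libraries, Nfe2l2 was at 0.32 on the log2 scale (adjusted p = 0.0601), Nqo1 at 1.54 (adjusted p = 0.0638) and Aldh3a2 at 0.40 (adjusted p = 0.0502).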

How the data were processed

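Per the labels' protocols, the steps were miRNeasy RNA extraction, Geo-seq amplification, which serves small samples, and TruePrep library construction, and neither molecular identifiers nor strand are described. Per the submitters' processing notes, HTSeq, DESeq2, Bowtie 0.12.9 and Cufflinks 2.1.1 were used on mm10, in roles that are not stated. The gene annotation is not given in the sources used here, nor are filters. The deposited unit is a signal, in which the authors divided read counts by 1 factor per library. Dividing by the smallest step gave whole reads within 0.01 for at least 99.996% of values. It is neither CPM nor per length, whatever the table's name (FPKM) says.

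All 10 libraries, 5 per genotype label, entered limma 3.58.1 (R 4.3.3, intensity trend, group as the only term) on log2(normalized reads + 1), a scale that understates changes of low genes. The 22458 genes that reached 1 in 5 or more libraries were tested, with Benjamini-Hochberg adjustment over all of them. Alternatives were edgeR 4.0.16 and DESeq2 1.42.0 on recovered reads, quantile and TMM scaling, no filter, a stricter filter (5 in 5 libraries), a replicate block, a pseudocount of 0.1 and libraries left out. No 2 libraries of a group agreed within counting noise, the smallest chi-square per degree of freedom being 18.5, which does not show that they came from separate samples.

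The members and lists were chosen with earlier results of these data known. All members were named, with the called genes of smallest p, up to 4 per other list, and the 5 genes nearest to Gstm7 in pattern. Exons and transcripts came from GENCODE M21, where 49806 of 52171 symbols were found, and promoters from RefSeq. Read intervals are exact 95% Poisson intervals, and a count of 0 was taken to allow 3 reads.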

Additional observations from a re-analysis of the deposited data

Results flagged for a closer look

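In 7 of 64 groups of 5 libraries, from 32 genes, 1 library stood apart from the other 4 by a gap of more than 0.71 of the group's range. Chance gives about 1 in 20 groups. No glutathione transferase member was among them.

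In the heterozygous group, Ptges had 31.0 normalized reads in library 4, against 64.6 to 67.8 in the other 4. Alox5ap had 28386 in heterozygous library 5, against 14875 to 17074, which is also the library with the highest neutrophil marker sum. Akr1b3 had 3736 in heterozygous library 3, against 4973 to 5272, and Mafg had 3307 in the same library, against 2255 to 2515.

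In the control group, Cndp2 had 1558 normalized reads in library 4, against 1172 to 1276 in the other 4. Clec11a had 356 in control library 5, against 44.4 to 90.8, and Nxpe5 had 75.4 in control library 1, against 38.6 to 48.5.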

How the results depend on the processing

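Over the 20 alternatives, 167 of 195 member values kept their direction and their side of the threshold, and so did 393 of 440 values of other named genes, of which 47 lost the call and 0 reversed. Of the member values, 15 lost the call, all for Gstp1, 10 gained one and 3 reversed. The reversed values were Gstm5 at 0.13 without heterozygous libraries 3, 4 and 5, Gsta4 at 0.31 after quantile normalization, and Mgst2 at 0.42 without heterozygous libraries 1 and 2. The cause was not tested.

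Members called higher (2) numbered 1 after quantile normalization, without a filter, with a pseudocount of 0.1 and with edgeR, 4 with DESeq2, and 1 to 4 with 1 library left out. Members called lower (0) numbered 1 after quantile normalization, 2 without heterozygous libraries 3, 4 and 5, and 0 to 1 with 1 library left out. Other pathway genes called higher (13) numbered 21 without heterozygous libraries 1 and 2, and 8 to 13 with 1 library left out, with 8 without control library 1 or 5. Those called lower (4) numbered 8 without heterozygous libraries 1 and 2, 10 without heterozygous libraries 3, 4 and 5, and 3 to 4 with 1 library left out. Without heterozygous libraries 1 and 2, 9.91% of all genes tested were called higher and 12.5% lower. The shares were 8.39% and 9.31% without heterozygous libraries 3, 4 and 5.

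Over all genes, calls higher (1122) numbered 2098 without heterozygous libraries 1 and 2, 1725 without 3, 4 and 5, and 546 to 1308 with 1 library left out, with 546, 697, 688 and 638 without control library 1, 2, 3 or 5. Calls lower (1798) numbered 517 after quantile normalization, 1119 without a filter, 1063 with a filter of 5, 1028 with a pseudocount of 0.1, 808 with edgeR, and 484 to 2171 with 1 library left out. They numbered 1032 without heterozygous library 5 and 484, 927, 1045 and 648 without control library 1, 2, 3 or 5.

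Replicate numbers did not pair the libraries. Correlations of deviations between same-numbered libraries ran from -0.09 to 0.08, and 1 of 5 heterozygous libraries correlated best with its own number. With the replicate number as a block, 703 genes were called higher and 945 lower, and 1 member was called higher. The call of Abcc1 ended with the block (adjusted p = 0.0550), as did those of Gstp1, Gsr and Mafg.

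Gstm6 and Gsta4 rest on 8 to 20 reads per group, and the control level of Gstm7 on 15, so small differences there were not detectable at this depth. Values could not be fitted for Gstm6 in 3 and Gsta4 in 2 alternatives, where they failed the filter.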
